A study of Mus musculus with 16 samples.

Results

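The genes described here are 10 tubulin genes of the mouse liver, out of 51912 genes in the deposited count table: 5 beta-tubulins (Tubb2a, Tubb2b, Tubb4b, Tubb5 and Tubb6), 4 alpha-tubulins (Tuba1a, Tuba1b, Tuba1c and Tuba4a) and the gamma-tubulin Tubg1. They were chosen by measured values, namely the difference between a low isoleucine and a control diet in fasted liver, so that difference is described here and not tested. Of the 10 genes, 9 had enough counts to be tested among 14920 genes, and Tubb2b did not. Each library came from the liver of a male mouse aged 13 weeks that had been fed, from 10 weeks of age and for 3 weeks, either an amino acid-defined control diet or the same kind of diet with less isoleucine. The 4 groups, with 4 libraries each, were control diet after a 16 h fast, low isoleucine diet after a 16 h fast, control diet after refeeding and low isoleucine diet after refeeding. The labels give neither the strain nor the length of refeeding, and no allele or agent other than the diets. In the labels each group carries 1 number of its own (1, 2, 7 and 9), and what that number stands for cannot be told apart from diet and feeding state. The labels do not say in words that the 4 libraries of a group came from separate animals, so p-values measure the spread between these libraries.

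Alpha- and beta-tubulin pair into the heterodimers from which microtubules are built, and gamma-tubulin sits in the ring complexes from which microtubules grow. In hepatocytes microtubules carry secretory vesicles, lipoproteins and endosomes between the Golgi, the sinusoidal surface and the bile canaliculus. Tubulin levels are known to be held by a feedback on the message: when unpolymerised tubulin is plentiful, the factor TTC5 recognises the first amino acids of a nascent tubulin chain on the ribosome, and the mRNA is degraded with the help of SCAPER and the CCR4-NOT complex.

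The start of the coding sequence is shown for 9 of the 10 members, all but Tubb6, because the feedback reads the amino acids of its first 4 codons, which are in capitals (24 bases from the start codon, 5′ to 3′, from GENCODE M21 transcripts on GRCm38).
Tubb2a: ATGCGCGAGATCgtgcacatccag
Tubb2b: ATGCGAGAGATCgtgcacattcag
Tubb4b: ATGAGGGAGATCgtgcacctgcag
Tubb5: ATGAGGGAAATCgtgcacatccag
Tuba1a: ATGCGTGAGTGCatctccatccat
Tuba1b: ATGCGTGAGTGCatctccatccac
Tuba1c: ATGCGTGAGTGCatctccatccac
Tuba4a: ATGCGCGAGTGCatttcagtccat
Tubg1: ATGCCGAGAGAAatcatcacccta
The capitals of the beta-tubulins encode methionine, arginine, glutamate and isoleucine, and those of the alpha-tubulins encode methionine, arginine, glutamate and cysteine. All 8 beta-tubulin and all 8 alpha-tubulin genes looked up in the annotation, members or not, began in these ways. Tubg1 begins with methionine, proline, arginine and glutamate, which is a different order.

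The members lie on 7 chromosomes, and some are close relatives in sequence. Coordinates are those of GENCODE M21 on GRCm38, while the build behind the counts is not given in the sources used here. Tubb2a (ENSMUSG00000058672) lies at chr13:34074274-34078007 on the minus strand, 48740 bases from Tubb2b at chr13:34126748-34130466. Their coding sequences are 96.5% identical, and 49.6% of the 50-base windows of the Tubb2a transcript occur in another gene's transcript. Tuba1b (chr15:98931425-98934565), Tuba1a (chr15:98949837-98953703) and Tuba1c (chr15:99029891-99038110) form a cluster in which coding sequences are 97.1% to 98.3% identical. In Tuba1b 73.8% of windows were shared, in Tuba1a 72.9% and in Tuba1c 61%, so how the authors' counting divided reads among these 3 genes is uncertain. Tubb4b (chr2:25222160-25224702) shared 50.9% of its windows, mostly with the pseudogene Tubb4b-ps1, which was counted at no more than 0.598 CPM in any library. Tubb5 (chr17:35833921-35838306) shared 0.115% and Tuba4a (chr1:75214228-75219865) 1.11%, so these 2 genes are the ones whose counts sharing touches least among the abundant members. Tuba4a overlaps Stk16 on the other strand, and whether the counting used strand is not given. In fasted livers Stk16 stood at 57.5 ± 3.39 CPM on the control diet and 67.3 ± 10.4 CPM on the low isoleucine diet (SD, n = 4), with overlap. Tubb4b overlaps Fam166a on the other strand, which was counted at no more than 0.242 CPM. Tuba1b overlaps the antisense gene Gm41396 and Tuba1a and Tuba1b overlap Gm49450, which were not analysed here. Tubg1 has 11 exons and every other member 4.

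Total counts ran from 24368656 to 34002955 per library. The hepatocyte markers Alb, Ttr, Apoa1, Tat, Cps1 and Serpina1c together took 61586 to 114811 CPM, and no marker of any cell type list was at 0 in all 16 libraries. Control refed library 4 stood apart: its summed stellate markers reached 563 CPM against at most 250 in the other 3 libraries of the group, its Kupffer markers 446 against 323 and its endothelial markers 316 against 193. Values without it are given beside those of Tubb2a, Tubg1, Tubb6, Tuba1a and Tuba8 and the feeding results of other genes. Levels are TMM-normalised CPM, that is counts set to a common depth, and differences are fitted log2 fold changes with their standard error (SE).

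In fasted liver, transcripts of 6 members were higher on the low isoleucine diet in every library than in any control library, the beta-tubulins Tubb2a, Tubb4b and Tubb5 and the alpha-tubulins Tuba1b, Tuba1c and Tuba4a. Differences ran from 1.67-fold for Tubb5 to 4.21-fold for Tubb2a. Tubb6, Tuba1a and Tubg1 differed by 1.22-fold or less, with overlapping groups. These 6 of 9 tested members also passed the edgeR quasi-likelihood threshold (adjusted p under 0.05 over all genes), where 0.328% of all tested genes passed in the higher direction, and 3.67% of all tested genes were higher without overlap. Since this contrast chose the members, nothing is read from those counts. In the authors' deposited table for the same comparison, 6 of 9 listed members were also past 0.05, where 0.274% of its 14211 genes were past it and higher.

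Tubb2a, a beta-tubulin isotype abundant in brain, had the largest difference. It stood at 20.3, 13.9, 11 and 18.2 CPM in control fasted libraries 1 to 4 and at 32.2, 87.5, 87.7 and 59.7 CPM in low isoleucine fasted libraries 1 to 4. The lowest low isoleucine library lay above the highest control library, and within the low isoleucine group library 1 was far below libraries 2 and 3. The log2 fold change was 2.07 (SE 0.368).

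Tubb4b, a broadly expressed isotype, had the highest mean per kilobase of transcript in fasted liver. It stood at 54.3, 38.2, 42.6 and 56.9 CPM on the control diet and at 70.9, 98, 112 and 110 CPM on the low isoleucine diet in fasted livers. Its log2 fold change was 1.02 (SE 0.19). Tubb5, the beta-tubulin common to most dividing and resting cells, went from 16.8, 20.7, 18.3 and 22.6 CPM to 29.1, 32, 35.7 and 34.3 CPM, a log2 fold change of 0.74 (SE 0.142). In neither gene did the diets overlap, and Tubb5 was the member with the smallest difference among the 6.

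The 3 alpha-tubulins had log2 fold changes from 0.82 to 0.87. Tuba4a, which unlike other alpha-tubulins is made without the C-terminal tyrosine, stood at 91.7, 73.7, 62.7 and 88.3 CPM in control fasted livers and at 105, 151, 146 and 163 CPM in low isoleucine fasted livers, a log2 fold change of 0.84 (SE 0.157). Tuba1c stood at 62.2, 51.4, 41.9 and 58.5 CPM against 76.6, 92.3, 108 and 116 CPM, a log2 fold change of 0.87 (SE 0.151). Tuba1b stood at 21.3, 19.9, 20.7 and 21.7 CPM against 29.3, 35.7, 44.9 and 38.3 CPM, a log2 fold change of 0.82 (SE 0.15). The control fasted libraries of Tuba1b, between 19.9 and 21.7 CPM, were the narrowest group of the 6 genes. With Tuba1a, Tuba1b and Tuba1c summed before the fit, to set aside how reads were divided, the log2 fold change was 0.84, and with Tubb2a and Tubb2b summed it was 2.07.

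The size of these differences was steadier than their passing the threshold. Leaving out each library in turn, Tubb2a kept a log2 fold change of 1.92 to 2.30 and Tuba1c one of 0.77 to 0.98. However, none of the 6 passed over all genes without control fasted library 2 or 4 or without low isoleucine fasted library 2, 3 or 4, 1 passed without control fasted library 3, and all but Tubb5 passed without control fasted library 1. The number of genes past the threshold among all genes also fell, from 115 to between 6 and 40 in the fits in which 0 or 1 member passed. Without low isoleucine fasted library 1, all 6 passed and 203 genes did in all. With all libraries, Tuba1b did not pass when counts were scaled by library size alone, and Tubb2a did not pass when genes of low counts were kept in.

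**Figure D1:**
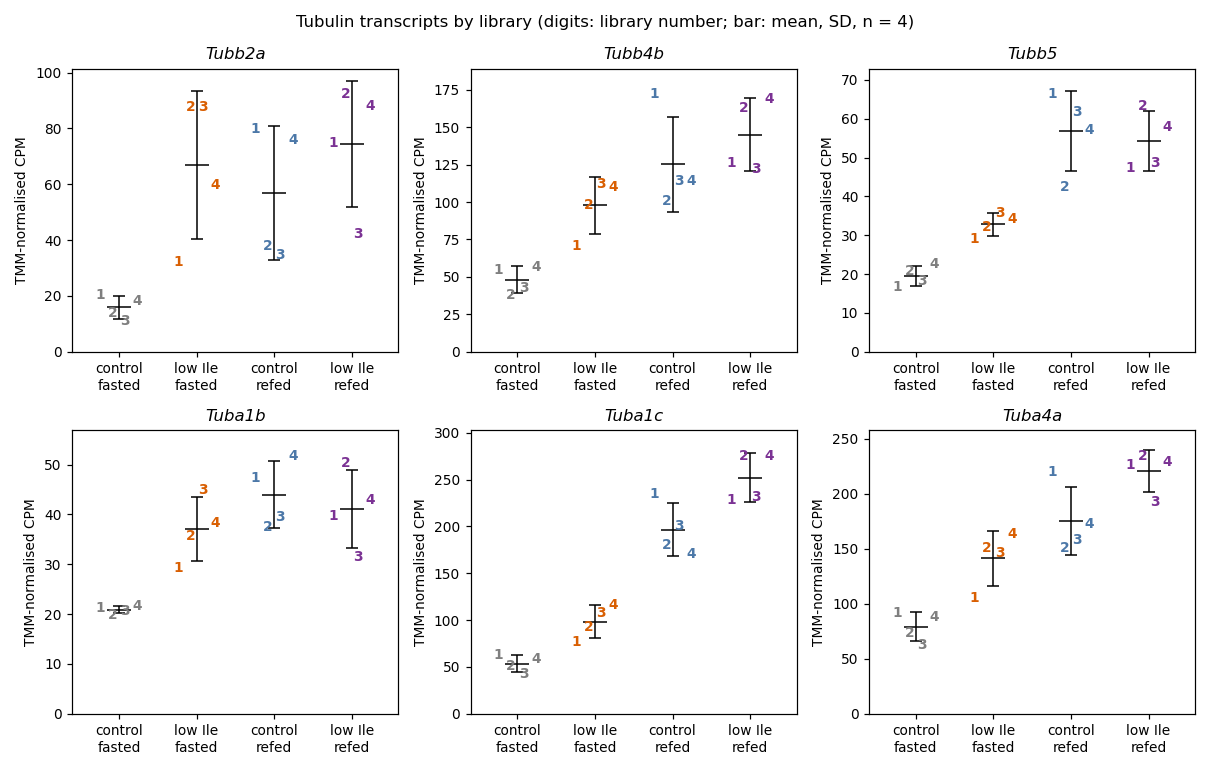
TMM-normalised CPM of Tubb2a, Tubb4b, Tubb5, Tuba1b, Tuba1c and Tuba4a in each library, with the group on the x axis, digits for library numbers, and bars for the mean and SD of 4 libraries. Control fasted libraries lie lowest in all 6 panels, and low isoleucine fasted library 1 is the lowest of its group in each.

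Of the marker sums of other cell types, that of Kupffer cells and macrophages did not overlap between diets in fasted liver. Summed Kupffer and macrophage markers stood at 313 to 410 CPM in control fasted and 201 to 292 CPM in low isoleucine fasted livers. Of these markers 10 of 11 were lower, where 51.7% of all tested genes were higher. None was past the threshold, and 6 of 11 had an unadjusted p under 0.05 (edgeR), where 10.8% of all tested genes did. In refed livers their sums overlapped, at 234 to 446 CPM and 188 to 332 CPM, and 0 of 11 markers were higher on the low isoleucine diet, where 47.6% of all tested genes were. Lymphocyte marker sums stood at 13.2 to 15.5 CPM in control fasted and 6.17 to 13.2 CPM in low isoleucine fasted livers, meeting at 13.2 CPM as rounded. Of 9 tested lymphocyte genes 0 had positive values, where 51.7% of all tested genes did. Stellate, endothelial, cholangiocyte and neutrophil sums overlapped. So did the sums of hepatocyte markers, which stood at 61586 to 95506 CPM against 94145 to 114811 CPM, and those of erythroid and platelet markers, at 200 to 253 CPM against 248 to 637 CPM. Of 7 tested genes of the latter list 5 had positive values, and values ran from -1.10 for Alas2 to 1.22 for Hba-a1, with a median of 0.95. Of these genes 5 of 7 had an unadjusted p under 0.05 (edgeR), where 10.8% of all tested genes did. The 1 that passed, Hbb-bs, a beta-globin, rose by a log2 fold change of 1.00 (edgeR, adjusted p = 0.0275), and Cd4 of the lymphocyte list fell by 1.76 on the log2 scale (edgeR, adjusted p = 0.0287). Sums of proliferation genes, with which tubulins are often expressed, overlapped between the diets in fasted liver, at 36.4 to 42.7 CPM and 32.9 to 40 CPM. In refed liver they did not, at 41.7 to 54.2 CPM on the control and 35.3 to 38.3 CPM on the low isoleucine diet. There 0 of 13 tested genes were higher, where 47.6% of all tested genes were. None passed, and 8 had an unadjusted p under 0.05 (edgeR), where 9.76% of all tested genes did. The part of these shifts in the tubulin differences was not tested, and in whole liver fewer cells of a type and less RNA per cell cannot be told apart.

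In refed liver, whose libraries are not those of the diet contrast that chose the members, no member passed between diets. In the edgeR quasi-likelihood test 0 of 9 members passed an adjusted p of 0.05, where 0.174% of all tested genes passed in either direction. At an unadjusted p under 0.05 the count was 2 of 9 against 9.76% of all tested genes, and DESeq2 and limma-voom called 0. The authors' deposited table also has 0 of 9 members past 0.05, where 0.274% of its genes were past it. Control and low isoleucine groups overlapped for every member.

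Tubb2a stood at 79.7, 37.9, 34.5 and 75.7 CPM on the control diet and at 74.9, 92.2, 42.3 and 88 CPM on the low isoleucine diet in refed livers. Each refed group held both low and high libraries, and the log2 fold change was 0.38 (SE 0.351, edgeR adjusted p = 0.776), or 0.54 without control refed library 4. Tubb4b stood at 172, 101, 114 and 114 CPM against 126, 163, 122 and 169 CPM, a log2 fold change of 0.21 (SE 0.188, edgeR adjusted p = 0.761). Here the highest library of all was a control.

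Tuba1c and Tuba4a were the pair nearest to a difference. Tuba1c stood at 235, 180, 200 and 171 CPM on the control diet and at 228, 275, 231 and 275 CPM on the low isoleucine diet in refed livers, with a log2 fold change of 0.36 (SE 0.149, unadjusted p = 0.027, edgeR adjusted p = 0.442). Tuba4a stood at 220, 151, 158 and 172 CPM against 226, 234, 192 and 229 CPM, with a log2 fold change of 0.33 (SE 0.156, unadjusted p = 0.049, edgeR adjusted p = 0.508). For both genes 3 of the 4 control libraries lay below the whole low isoleucine group, and control library 1 lay inside it. Neither passed once all genes were taken into account.

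Tubb5 and Tuba1b had differences near 0. Tubb5 stood at 66.3, 42.4, 61.7 and 57.1 CPM against 47.2, 63.4, 48.6 and 57.8 CPM, a log2 fold change of -0.07 (SE 0.14, edgeR adjusted p = 0.915). Tuba1b stood at 47.3, 37.5, 39.4 and 51.7 CPM against 39.6, 50.3, 31.4 and 42.9 CPM, a log2 fold change of -0.10 (SE 0.148, edgeR adjusted p = 0.872). The sign of either was not stable: without control refed library 1 the Tubb5 value was 0.01, without low isoleucine refed library 3 the Tuba1b value was 0.01, and with the 3 Tuba1 genes summed it was 0.28.

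**Figure D2:**
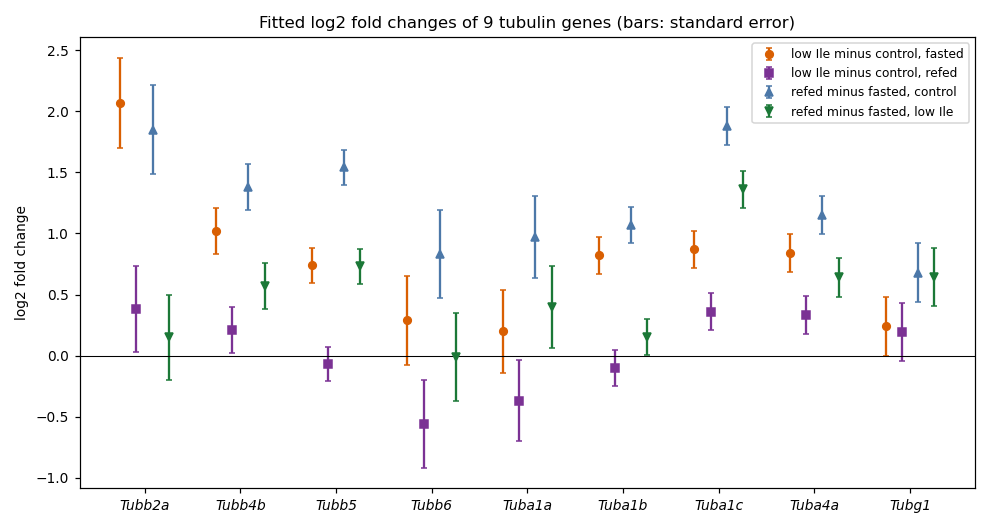
Fitted log2 fold changes of the 9 tested members (y axis, bars for SE) for the 2 diet contrasts, low isoleucine minus control, and the 2 feeding contrasts, refed minus fasted. The fasted diet and control feeding values of Tubb2a, 2.07 and 1.85, stand high, while the refed diet values of all 9 genes lie between -0.56 and 0.38.

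Refed livers on the control diet had higher levels than fasted ones of Tubb2a, Tubb4b, Tubb5, Tuba1b, Tuba1c and Tuba4a, from 2.1-fold for Tuba1b to 3.67-fold for Tuba1c. The feeding comparisons share their fasted libraries with the diet comparison that chose the members, so their values are a description. On the control diet 6 of 9 members were past the edgeR threshold and higher, where 8.91% of all tested genes were, and 6 of 9 were higher without overlap, where 9.5% of all tested genes were. On the low isoleucine diet 4 of 9 were past the threshold, where 9.6% of all tested genes were, and 4 of 9 were higher without overlap, where 11.6% of all tested genes were. Nothing is read from these shares about the members.

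Tuba1c had the largest feeding difference among the tested members on either diet, a log2 fold change of 1.88 (SE 0.155) on the control diet and of 1.36 (SE 0.152) on the low isoleucine diet. All 8 refed libraries of Tuba1c, from 171 to 275 CPM, lay above all 8 fasted ones, which reached 116 CPM. Tubb5 had values of 1.54 (SE 0.144) and 0.73 (SE 0.141), and its refed libraries, from 42.4 CPM, also lay above every fasted one. In both genes the low isoleucine fasted group thus took a place between control fasted and refed livers.

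Tubb2a and Tuba1b behaved otherwise. Tubb2a had a log2 fold change with refeeding of 1.85 (SE 0.365) on the control diet and 0.15 (SE 0.35) on the low isoleucine diet, and Tuba1b had 1.07 (SE 0.15) and 0.15 (SE 0.148). The low isoleucine fasted range of Tubb2a, 32.2 to 87.7 CPM, overlapped both refed groups, and so did that of Tuba1b, 29.3 to 44.9 CPM. Tubb4b had values of 1.38 (SE 0.192) and 0.57 (SE 0.188), and Tuba4a of 1.15 (SE 0.158) and 0.64 (SE 0.157), between these extremes.

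The diet difference in refed liver minus that in fasted liver was negative for all 9 tested members, from -1.69 (SE 0.502) for Tubb2a to -0.05 (SE 0.337) for Tubg1, and Tuba1b had -0.92 (SE 0.21). Of all tested genes 47.7% had a positive value. None passed after adjustment in edgeR, in which no gene of 14920 did, and limma-voom called none. DESeq2 called 1, Tuba1b. At an unadjusted p under 0.05 there were 6 of 9, where 6.22% of all tested genes were. The fasted diet contrast is part of this difference and chose the members, so these values are no independent sign that diet acted differently by feeding state.

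The make-up of the alpha-tubulin transcripts differed between feeding states, and a few shares of alpha- or beta-tubulin did not overlap between diets. These shares were not tested, and how often such shares part between groups in general was not counted. Shares are of summed CPM, not of molecules, and are compared between groups only. In fasted livers Tuba4a took 50.4% ± 1.58 of the alpha-tubulin CPM on the control and 50.4% ± 2.38 on the low isoleucine diet (SD, n = 4). In refed livers it took 41.4% ± 1.81 and 42.6% ± 1.97. Tuba1c took 34.1% ± 1.24 and 35% ± 1.6 in fasted livers, then 46.7% ± 3.26 and 48.7% ± 1.99 in refed livers. The fasted and refed ranges of both shares did not overlap, while the ranges of the diets overlapped within each feeding state. Tuba1b took 13.5% ± 1.73 on the control and 13.3% ± 1.31 on the low isoleucine diet in fasted livers, with overlap. In refed livers it took 10.5% ± 1.55 (9.35% to 12.8%) and 7.87% ± 0.846 (6.84% to 8.9%), and the diets did not overlap. On the low isoleucine diet its fasted range, 11.9% to 14.9%, also lay above its refed range, while on the control diet the feeding states overlapped. The refed diet value of Tuba1b itself was near 0 (log2 fold change -0.10). The uncertain division of reads among Tuba1a, Tuba1b and Tuba1c enters the shares of these 3 genes, and its part was not tested.

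Among beta-tubulins the Tubb2a share of the summed CPM in fasted livers was 18.1% ± 2.86 on the control and 32.1% ± 7.25 on the low isoleucine diet, where the ranges, 14.5% to 21.6% and 23.7% to 39.6%, did not overlap; the values that chose the members enter this share. In refed livers it was 22.6% ± 5.72 on the control and 26.3% ± 4.54 on the low isoleucine diet, with overlap. The Tubb6 share in fasted livers was 3.05% to 4.71% on the control and 1.53% to 2.46% on the low isoleucine diet. These ranges did not overlap either, and the values that chose the members enter the sum behind them. In refed livers the Tubb6 shares overlapped. Summed alpha-tubulin was 156 ± 22, 280 ± 46, 421 ± 58.4 and 518 ± 49 CPM in control fasted, low isoleucine fasted, control refed and low isoleucine refed livers, and summed beta-tubulin was 86.8 ± 13.1, 201 ± 45.6, 245 ± 59.2 and 278 ± 53.9 CPM. The ratio of the sums was 1.81 ± 0.127, 1.41 ± 0.172, 1.75 ± 0.214 and 1.89 ± 0.201 in that order. Low isoleucine fasted livers had the lowest mean ratio, with a range of 1.25 to 1.58 below the 1.68 to 1.94 of control fasted livers. The values that chose the members enter these sums and their ratio, so this difference is a description and was not tested.

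**Figure D3:**
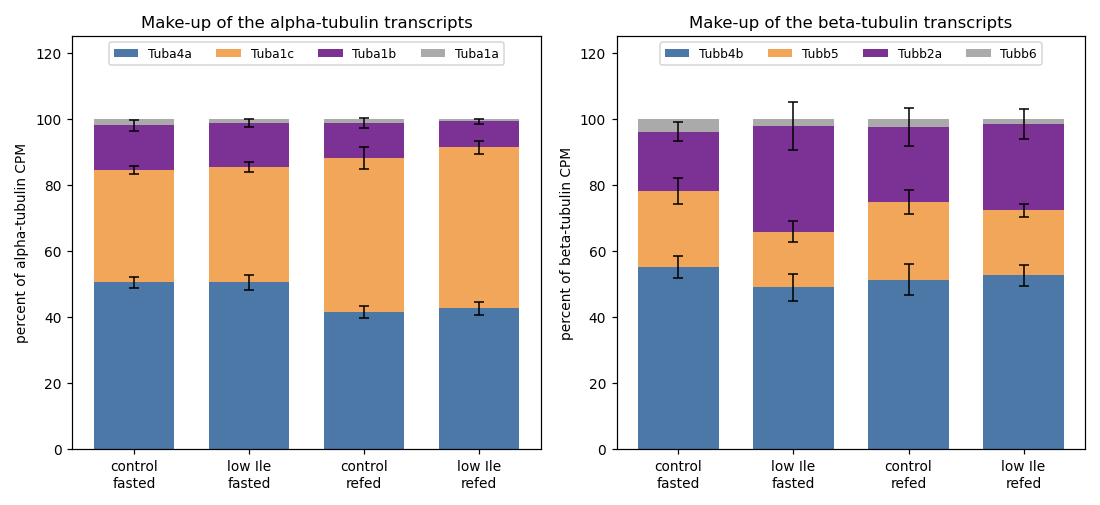
Percent of the summed CPM of alpha-tubulin members (left) and beta-tubulin members (right) taken by each gene, as means of 4 libraries per group, with the SD of each share drawn at the top of its segment. Tubb2b, Tuba1a and Tubb6 carry no error bar, and Tubb2b, at no more than 0.0409% on average, is not drawn. Tuba1c widens from fasted to refed livers, and Tubb2a is widest in low isoleucine fasted livers.

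Per kilobase of transcript, levels between genes can be ordered within limits. The length is that of a single annotated transcript per gene, which may not be the one used in counting. The uncertain division of reads enters the places of Tuba1a, Tuba1b and Tuba1c. Tubb2a and Tubb4b shared 49.6% and 50.9% of their windows with other genes. In control fasted liver Tubb4b (30 ± 5.62 CPM per kb), Tuba4a (27.9 ± 4.72) and Tuba1c (27 ± 4.52) led and did not differ beyond their spread. Next by mean came Tuba1b (12 ± 0.469), Tubb2a (9.85 ± 2.62), Tubb5 (7.4 ± 0.967) and Tubg1 (7.08 ± 1.46). The spread of Tubb2a touched those of Tuba1b, Tubb5 and Tubg1, so its place among them is not fixed, and Tubb5 and Tubg1 did not differ beyond theirs. Tubb6 (1.91 ± 0.197) and Tuba1a (1.61 ± 0.603) followed, and Tubb2b was at 0.0114 ± 0.0142. In low isoleucine fasted liver the mean of Tubb2a, 41.5 ± 16.5 CPM per kb, stood nearer to Tuba4a (49.8 ± 8.99) and Tuba1c (49.5 ± 8.72) than to Tuba1b (21.2 ± 3.71). The spread of Tubb2a was wide, and its library 1, at 32.2 CPM, lay within the 29.3 to 44.9 CPM of Tuba1b (transcripts of 1610 and 1743 bases). In low isoleucine refed liver Tuba1c led alone, at 127 ± 13.2 CPM per kb against 90.8 ± 15.2 for Tubb4b.

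In the remaining 4 members the diets overlapped in either feeding state. Tubg1 (chr11:101119938-101126419), the nucleating gamma-tubulin, stood at 14, 12.8, 9.08 and 15.2 CPM on the control diet and at 9.33, 15.3, 19.1 and 16.3 CPM on the low isoleucine diet in fasted livers. In refed livers it stood at 28.2, 21.7, 17.3 and 15 CPM on the control and 24, 25, 16 and 28.4 CPM on the low isoleucine diet. Groups overlapped in both states, and the refed log2 fold change was 0.19 (SE 0.237, edgeR adjusted p = 0.85), or 0.05 without control refed library 4.

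Tubb6 (chromosome 18, 67390717 to 67402749), a beta-tubulin of muscle and other non-neural tissues, stood at 2.88, 3.34, 3.56 and 3.66 CPM on the control diet and at 3.34, 3.39, 5.18 and 4.49 CPM on the low isoleucine diet in fasted livers. Refed values were 4.3, 6.18, 2.99 and 10.3 CPM on the control and 2.82, 5.92, 1.92 and 5.62 CPM on the low isoleucine diet, a log2 fold change of -0.56 (SE 0.357, edgeR adjusted p = 0.655). Control refed library 4 was the highest of all 16.

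Tuba1a, an alpha-tubulin prominent in developing neurons, stood at 2.88, 2.56, 4.39 and 1.8 CPM on the control diet and at 4.26, 3.14, 2.53 and 3.45 CPM on the low isoleucine diet in fasted livers. Refed values were 3.78, 5.41, 3.11 and 10.2 CPM on the control and 3.05, 5.49, 4.61 and 4.45 CPM on the low isoleucine diet, a log2 fold change of -0.37 (SE 0.33, edgeR adjusted p = 0.77). Here too control refed library 4 was the highest, in which stellate, Kupffer, endothelial, lymphocyte and neutrophil marker sums were the highest of the group. Without that library the refed diet value was 0.08 for Tuba1a and -0.16 for Tubb6, and the control feeding values were 0.50 in place of 0.97 for Tuba1a and 0.42 in place of 0.83 for Tubb6. The part of those cell types in the values of this library was not tested.

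Tubb2b, the closest relative of Tubb2a, was near 0. Its counts added up to 3 over the 4 control fasted libraries, 5 over the low isoleucine fasted, 14 over the control refed and 14 over the low isoleucine refed libraries. Low isoleucine refed library 2 alone held 10 of the last 14. At this depth no difference between groups could be seen.

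**Figure D4:**
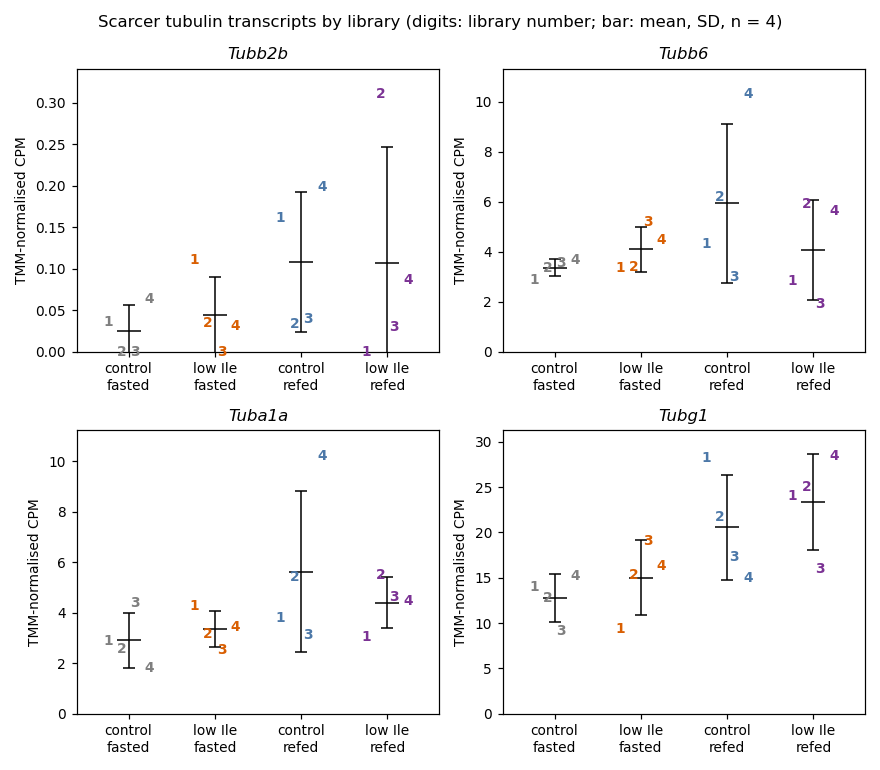
TMM-normalised CPM of Tubb2b, Tubb6, Tuba1a and Tubg1 in each library, with the group on the x axis, digits for library numbers, and bars for the mean and SD of 4 libraries. Control refed library 4 stands highest for Tubb6 and Tuba1a, at 10.3 and 10.2 CPM, and the diets overlap in every panel.

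The 6 genes named first also varied together from library to library within groups. After group means were taken out, all 15 of their pairs correlated positively over 16 libraries, with r from 0.48 to 0.87 and a median of 0.64. These libraries share scaling and liver, and the 6 genes were picked by their values, so this is a description. Low isoleucine fasted library 1 was the lowest of its group in 6 of 6 genes, and control refed library 1 was the highest of its group in 5 of 6. Low isoleucine refed library 2 was the highest of its group in 5 of 6, and library 3 of that group was the lowest in 4. Tubg1 went with the 6 (median r 0.74) and Tubb6 less closely (0.26). Tuba1a had negative values with 5 of the 6 (median -0.30), although its coding sequence is 98.3% identical to that of Tuba1b.

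Of 10 other tubulin genes 3 were measured well enough to test, and none passed between diets. Tuba8, an alpha-tubulin of muscle and testis, was the one nearest to the members: it stood at 1.63, 1.19, 1.8 and 2.76 CPM on the control diet and at 3.05, 5.15, 7.35 and 4.25 CPM on the low isoleucine diet in fasted livers, without overlap. Its log2 fold change of 1.42 (SE 0.477) did not pass over all genes (edgeR adjusted p = 0.235). In refed livers Tuba8 stood at 4.18, 2.96, 5.03 and 17.5 CPM on the control and 5.61, 7.41, 6.76 and 8.81 CPM on the low isoleucine diet (difference of -0.07 on the log2 scale, edgeR adjusted p = 0.981), with control refed library 4 again the highest. Without that library the diets did not overlap in refed liver and the difference was 0.80 on the log2 scale, which did not pass (edgeR adjusted p = 0.275), so its sign rests on 1 library. With refeeding on the control diet Tuba8 rose by 2.02 on the log2 scale (edgeR adjusted p = 0.00907). Without control refed library 4 that rise was 1.13 (edgeR adjusted p = 0.0175). On the low isoleucine diet its feeding value of 0.53 did not pass (edgeR adjusted p = 0.452). Tubd1, the delta-tubulin of centrioles, rose with refeeding, from 2.25 ± 0.339 to 5.49 ± 1.29 CPM on the control diet (edgeR adjusted p = 0.000357) and from 1.82 ± 0.389 to 4.98 ± 0.433 CPM on the low isoleucine diet (edgeR adjusted p = 0.000104). Tube1 stood at 0.541 ± 0.189 CPM in control fasted livers and did not pass in any contrast. Tuba3a, Tuba3b and Tubal3 had 0 counts in all 16 libraries, and Tubb1, Tubb3, Tubb4a and Tubg2 had at most 16 counts over any group.

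None of the tested genes listed as folding tubulin, regulating its message, modifying it or binding microtubules passed between diets, in comparisons where few genes of any kind did. In 7 lists with 94 tested genes 0 were higher and 0 lower in fasted liver (edgeR, adjusted over all genes), with 6 at an unadjusted p under 0.05 and a median log2 fold change of 0.05 against 0.01 over all genes tested. Among all tested genes 0.771% passed in either direction and 10.8% had an unadjusted p under 0.05. In refed liver 0 were higher and 0 lower, with 7 at an unadjusted p under 0.05 and a median of 0.01, where 0.174% and 9.76% of all tested genes were. The lists were written with earlier results known. Among 14 chaperonin and prefoldin subunits, which fold new actin and tubulin, the fasted diet median was 0.15 with 12 positive, and 0 passed. Of all tested genes 51.7% were positive in that contrast. Among 7 tubulin cofactors, which assemble the heterodimer, the median was 0.03 and 0 passed, and among 5 genes of the message feedback (Ttc5, Scaper, Cnot11, Cnot1 and Cnot10) it was -0.02 and 0 passed.

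Some of these genes differed by feeding state, in either direction. Of the 94 genes 9 rose and 12 fell with refeeding on the control diet, and 18 rose and 12 fell on the low isoleucine diet (edgeR). Among all tested genes 8.91% rose and 8.2% fell on the control diet, and 9.6% rose and 11.8% fell on the low isoleucine diet. Cct3, a chaperonin subunit, rose from 88 ± 14 to 133 ± 14.9 CPM on the control diet (edgeR adjusted p = 0.0018), and the prefoldin subunit Pfdn4 rose from 4.06 ± 0.505 to 8.03 ± 0.893 CPM (edgeR adjusted p = 0.000252). Ttl, which restores the C-terminal tyrosine of alpha-tubulin, rose from 4.81 ± 0.934 to 7.36 ± 1.31 CPM (edgeR adjusted p = 0.0125). Atat1, the alpha-tubulin acetyltransferase, fell from 10.8 ± 1.19 to 6.02 ± 1.78 CPM (edgeR adjusted p = 0.00402). Scaper, of the message feedback, fell from 5.67 ± 0.736 to 3.47 ± 0.416 CPM (edgeR adjusted p = 0.00941). The kinesin Kif1b fell from 185 ± 14.4 to 93.2 ± 11.8 CPM (edgeR adjusted p = 0.000151), while the dynein light chain Dynll1 rose from 6.7 ± 1.38 to 22.8 ± 8.66 CPM (edgeR adjusted p = 0.000262). These examples were picked after their values were seen. Without control refed library 4, these 7 genes and Tubd1, Actb and Actg1 (10 of 10) still passed on the control diet in the same direction.

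The cytoplasmic actins passed with feeding and did not pass with diet. Actb rose with refeeding on the control diet from 181 ± 24.4 to 536 ± 108 CPM (edgeR adjusted p = 0.000241) and Actg1 from 132 ± 20.4 to 745 ± 214 CPM (edgeR adjusted p = 4.2e-06). Fasted levels on the low isoleucine diet were 209 ± 51.4 CPM for Actb (edgeR adjusted p = 0.848 between diets) and 152 ± 37 CPM for Actg1 (edgeR adjusted p = 0.833). Among 18 tested actin cytoskeleton genes 0 were higher and 1 was lower between diets in fasted liver. That gene, Pls1, an actin bundler of microvilli, fell from 1.31 ± 0.766 to 0.253 ± 0.134 CPM (edgeR adjusted p = 0.0388). Of 6 intermediate filament genes 0 passed between diets.

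**Figure D5:**
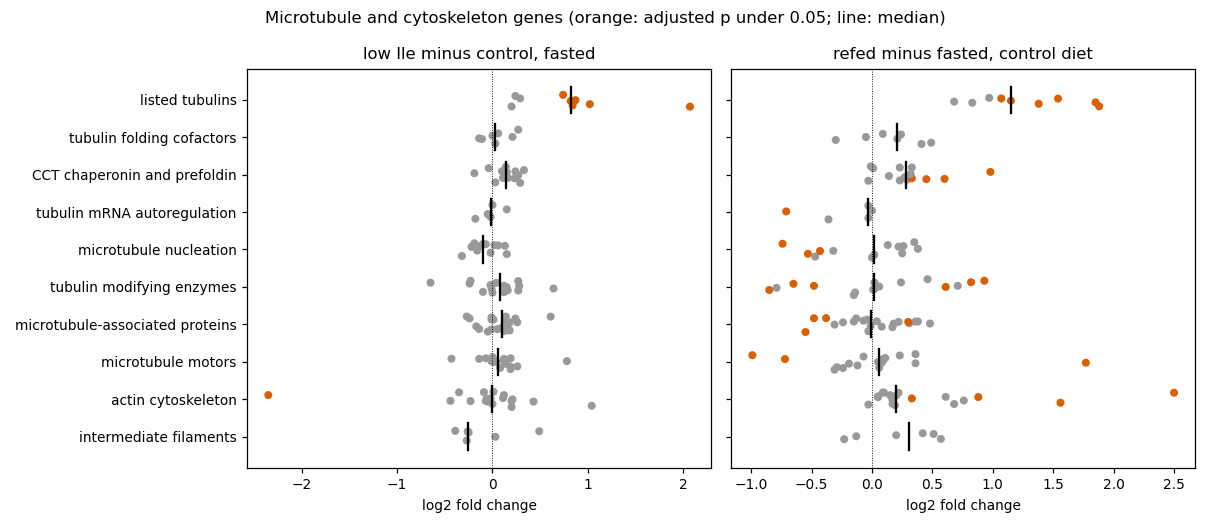
Fitted log2 fold changes (x axis) of the 9 tested members and of genes in 9 microtubule and cytoskeleton lists (rows) for diet in fasted liver (left) and feeding on the control diet (right), with a point per gene, orange where the adjusted p is under 0.05 and a black line at the median. The members, chosen by the left contrast, have medians of 0.82 and 1.15, while list medians on the left lie between -0.25 and 0.15.

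The genes whose levels most resembled those of the members over the 16 libraries were looked up among 12145 genes with a mean of at least 1 CPM, tubulins left out. For Tubb2a they were Emg1 (Pearson r 0.919), Ski (0.909), Tnpo2 (0.89), Tbc1d24 (0.889) and Slc35f6 (0.887). For the mean of the standardised members Ppil1 (0.951), Timm22 (0.942) and Ppp1r14b (0.927) came first. All 16 libraries share the diet and feeding groups, and after group means were taken out r ran over these 8 genes from 0.536 for Tbc1d24 to 0.834 for Ski. Ski, a repressor of TGF-beta signalling, stood in fasted livers at 15.5 ± 1.64 CPM on the control and 22.9 ± 2.84 CPM on the low isoleucine diet (SD, n = 4), and Ppil1 at 3.75 ± 0.427 and 5.94 ± 1.42 CPM. In refed livers Ppil1 stood at 7.76 ± 0.617 and 9.43 ± 2.07 CPM. Since these genes were picked by their resemblance over the same libraries, their differences are given without a test.

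The promoters of the members differed in the short motifs they held. RefSeq promoter windows of GRCm38.p6 matched 7 of the 10 members, of which the 250 bases before the start site were read on both strands for the CCAAT box, the GC box GGGCGG, the E-box CACGTG, the amino acid response core TGATGNAA and the TATA box TATAAA. No motif contains another. CCAAT was present in 4 of 7 windows against 33.8% of 32851 windows of that length, GGGCGG in 5 of 7 against 32.7%, CACGTG in 1 of 7 against 6.02% and TATAAA in 1 of 7 against 12.4%. TGATGNAA was in 0 of 7 and in 3.45% of all windows, which says only that these letters are not in these windows. Below, 3 windows are given because they show the contrast, with the CCAAT box and GC box on either strand in capitals: Tubb2a at chr13:34078009-34078258 on the minus strand, Tubb4b at chr2:25224703-25224952 on the minus strand and Tuba1c at chr15:99029641-99029890 on the plus strand.
Tubb2a: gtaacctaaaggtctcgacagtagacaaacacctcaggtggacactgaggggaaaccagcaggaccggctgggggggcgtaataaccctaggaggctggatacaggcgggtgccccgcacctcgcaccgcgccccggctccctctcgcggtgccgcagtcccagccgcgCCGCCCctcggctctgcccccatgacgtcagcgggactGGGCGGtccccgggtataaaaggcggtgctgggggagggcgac
Tubb4b: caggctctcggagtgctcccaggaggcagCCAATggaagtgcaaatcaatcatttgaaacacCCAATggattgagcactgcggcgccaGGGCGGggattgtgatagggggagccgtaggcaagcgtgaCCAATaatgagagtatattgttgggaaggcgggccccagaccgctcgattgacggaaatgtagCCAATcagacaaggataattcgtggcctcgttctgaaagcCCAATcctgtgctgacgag
Tuba1c: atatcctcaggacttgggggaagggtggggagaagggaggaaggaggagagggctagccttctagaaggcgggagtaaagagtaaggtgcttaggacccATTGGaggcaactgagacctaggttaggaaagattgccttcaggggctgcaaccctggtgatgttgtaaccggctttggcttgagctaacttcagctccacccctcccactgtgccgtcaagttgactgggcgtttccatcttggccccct
Tubb4b has 5 CCAAT motifs and 1 GGGCGG, Tubb2a has 0 CCAAT and 2 GGGCGG, and Tuba1c has 1 CCAAT and 0 GGGCGG. A match is a run of letters and not a bound site.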

How the data were processed

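The data are 16 stranded libraries made from poly-A RNA of liver, per the labels' protocols. The authors deposited a table of expected counts per gene, per the file name and headers, in which 10.2% of values are not whole. Aligner, genome build and use of strand: not given in the sources used here. R 3.5.3, limma and edgeR are listed by the submitters' processing notes, with no roles. The authors also deposited a table per diet comparison with log2 fold changes, an F score and p-values, per the file headers.

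Expected counts were rounded and fitted in R 4.3.3 with edgeR 4.0.16 (filterByExpr with a minimum count of 10 and a minimum total of 15, TMM, robust quasi-likelihood, 1 mean per group over all 16 libraries), with Benjamini-Hochberg adjustment over 14920 genes and a threshold of 0.05. limma 3.58.1 and DESeq2 1.42.0 served as alternatives, beside other scalings, filters, sample sets, a replicate block, summed copies and leaving out each library. SE was computed as the size of the log2 fold change over the root of F. The scripts were tested on simulated data. Members and gene lists were chosen with earlier results of these data known. Besides all members and other tubulins, up to 4 genes per list that passed a diet contrast were to be named, and the 5 genes most like Tubb2a and the 5 most like the members' mean, of which some are not reported here. Shared transcript windows, coding starts and identities came from GENCODE M21. Medians of all genes moved by no more than 0.14 on the log2 scale under library size alone. No pair of libraries in a group agreed within sampling noise (chi-square per degree of freedom of at least 32.1), so none was treated as a repeat of another.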

Additional observations from a re-analysis of the deposited data

How the results depend on the processing

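For the 6 members counted as higher in fasted liver, other settings gave 5 to 6, and leaving out 1 library gave 0 to 6, with 0 without control fasted library 2 or 4 or low isoleucine fasted library 2, 3 or 4; the cause was not tested, and without low isoleucine fasted library 1 the count was 6. Members called between diets in refed liver were 0 in every setting run. Feeding on the control diet gave 6 to 8 called members (main 6), and feeding on the low isoleucine diet 3 to 5 (main 4). For the difference of the diet effects DESeq2 called 1 where edgeR called 0; the cause was not tested. Without control refed library 4, an alternative chosen after seeing the data, the refed diet value of Tuba8 was 0.80 in place of -0.07. Refed diet values of members that changed sign were those of Tubb5 (-0.20 to 0.01 when 1 library was left out), Tuba1a (-0.56 to 0.08) and Tuba1b (-0.21 to 0.01, and 0.28 with Tuba1a, Tuba1b and Tuba1c summed, a sum to which Tuba1c gives most counts). With a replicate block on the title marks 6 members were called in fasted liver, 0 in refed liver, 6 with feeding on the control and 3 with feeding on the low isoleucine diet. In that fit 77 genes of all kinds passed between diets in fasted liver, against 115 in the main fit. After group means were taken out, 8 of 24 same-mark pairs correlated over 0.1 and values ran from -0.325 to 0.323. Pairs of different marks were not compared with these, so whether the marks pair libraries is not settled. A fit with only the groups compared gives no difference of diet effects, as it needs all 4 groups. Depth limits Tubb2b, which had 3 to 14 counts per group.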
